A study of Mus musculus with 20 samples.

Results

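Batch E53B is one of the 2 batches of mice in which fecal bacteria were profiled after FO, the combination of 5-fluorouracil (5-FU) and oxaliplatin given to patients with colorectal cancer. Its members are the 10 fecal samples, of 20 in the whole series, whose titles carry this batch: 5 control mice and 5 FO mice, here called control replicates 1 to 5 and FO replicates 1 to 5. All 10 were adult female C57BL/6 mice, and no mutation or transgene is named for them. FO meant 1 intraperitoneal dose of oxaliplatin (3.5 mg/kg) with 5-FU (50 mg/kg) given on that day and again the day after, which makes 2 doses of 5-FU. Control mice got the vehicle on the same schedule, which was PBS according to the study's legends for the stool samples, while the general protocol in the labels allows PBS or water. Feces were taken 5 days after treatment, 1 pellet per mouse. The methods describe co-housing, but the cage of each mouse is not given in the sources used here, so cage and treatment cannot be told apart where they coincide. The question was how the fecal community differed after FO within 1 batch, and how uniformly.

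The 16S rRNA gene is carried by all bacteria, and its V4 region differs enough between lineages to name most of them to the genus and some to the species. In the mouse colon the family Muribaculaceae (phylum Bacteroidota) is usually dominant and ferments plant and host polysaccharides. The orders Lachnospirales and Oscillospirales, of the class Clostridia (phylum Firmicutes_A in the naming used here), hold many strict anaerobes that make short-chain fatty acids. Akkermansia and Mucispirillum live in or on the mucus layer, and Bilophila respires the sulfite released from taurine.

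Each value is a count of reads, given as a share of the mouse's total count. Shares of one mouse add up to 100%, so a fall in an abundant taxon lifts the shares of all others. Differences were therefore also measured as log ratios, in which a taxon is set against the other taxa of the same mouse. For families, genera and species the reference was the bulk of the taxa. For phyla and orders it was the mean of the logs of all those tested. Neither scale gives the number of bacteria, and fewer bacteria of a taxon cannot be told from more of the others. A line of the species table is called an entry, since some hold reads with no species or genus name, and V4 reads may not separate close species.

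Total counts ran from 17218 in FO replicate 1 to 49864 in FO replicate 5, with medians of 43846 in control and 40514 in FO mice (two-sided exact permutation test, p = 0.365). FO replicate 1 was the shallowest library, and 3 counts there make 0.0174% of its reads, against 0.00602% in FO replicate 5. A taxon with no count could hold up to these shares, and such limits cover counting error only because amplified reads are not independent molecules. Of the 301 species-level entries, 189 had a count in this batch, and 65 of them were found in all 10 mice. No pair of samples from the same group was close enough to be one library deposited more than once, with a chi-square over degrees of freedom of at least 13.3 in 20 pairs. With 5 against 5 mice there are 252 ways to assign the groups, so the smallest p of the two-sided exact permutation test is 0.00794. Reads without a species name made up 6.68% ± 0.750 (SD, n = 5) of control and 18.2% ± 2.65 (SD, n = 5) of FO totals (exact permutation test, p = 0.00794).

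The first comparison asked which large groups differed. FO mice had less Bacteroidota, and within it less Muribaculaceae, and higher shares of most of the other phyla and of 11 of the 19 orders tested. Muribaculaceae made up 77.0%, 78.3%, 82.1%, 79.2% and 79.2% of reads in the 5 control mice, and 58.1%, 54.5%, 47.5%, 53.2% and 51.9% in the 5 FO mice. The highest FO mouse lay well below the lowest control mouse, and the difference of the means was -26.1 percentage points (exact permutation test, p = 0.00794). The other Bacteroidales families, which include Bacteroidaceae and Rikenellaceae, moved the other way, from 5.05% ± 0.384 to 10.2% ± 1.88 (SD, n = 5 each), and all 5 FO mice lay above all control mice.

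**Figure D1:**
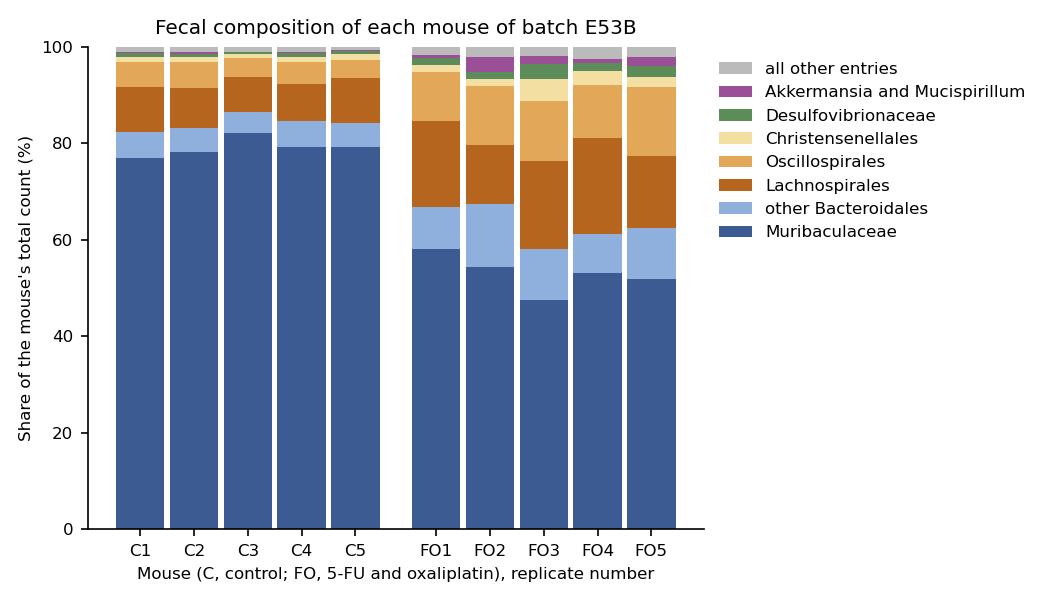
Share of each mouse's total count (vertical axis, percent) taken by Muribaculaceae, by other groups of bacteria and by all other entries, with one bar for each of the 5 control and 5 FO mice. Muribaculaceae filled 77.0% to 82.1% of each control bar and 47.5% to 58.1% of each FO bar.

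Firmicutes_A, the phylum of the class Clostridia, held 12.2% to 15.8% of reads in control mice and 26.4% to 35.7% in FO mice, a 2.23-fold higher mean share. Its largest order, Lachnospirales, rose from 8.43% ± 0.925 to 16.6% ± 2.98, and Oscillospirales from 4.53% ± 0.757 to 12.1% ± 1.54 (SD, n = 5 each). Christensenellales rose from 1.04% ± 0.171 to 2.45% ± 1.33, and the FO mice were far apart here, from 1.37% in FO replicate 1 to 4.60% in FO replicate 3. Desulfobacterota_I, the phylum of Bilophila, rose 3.13-fold to 2.03% ± 0.686, and its order Desulfovibrionales held the same reads. Deferribacterota, here the order Deferribacterales and the genus Mucispirillum, rose 4.99-fold to 1.03% ± 0.527. Verrucomicrobiota, here the order Verrucomicrobiales and the genus Akkermansia, went from at most 0.0129% in any control mouse to at least 0.151% in every FO mouse. Firmicutes_B_370539, which is nearly all Dehalobacteriales, rose 1.81-fold to 1.08% ± 0.202. Firmicutes_D, the Bacilli, rose 3-fold to 0.335% ± 0.178, with 3 of 5 FO mice above all control mice, and its order Lactobacillales rose from 0.0654% ± 0.0442 to 0.209% ± 0.158. The order TANB77 did not pass the test, at 0.128% ± 0.0646 and 0.282% ± 0.175 (exact permutation test, adjusted p = 0.0862).

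On shares, 7 of the 9 phyla tested were higher in FO mice (77.8%) and 1, Bacteroidota, was lower (11.1%), at an adjusted p below 5% in the exact permutation test. Of the 19 orders tested 11 were higher (57.9%) and 2 lower (10.5%). The lower orders were Bacteroidales and the rare Erysipelotrichales, which fell from 0.0214% ± 0.00989 to 0.00471% ± 0.00598 (SD, n = 5 each). One of the 9 phylum lines and 1 of the 7 higher ones held reads with no phylum name, and 2 of the 11 higher orders were lines without an order name. All 8 phylum and 13 order differences kept their direction whichever mouse was left out. Without a control mouse the differences of the 13 orders were 0.843 to 1.16 times their size with all mice, and 11 orders had an unadjusted p under 0.05 in the exact permutation test. After adjustment 7 of them passed without control replicate 1, 2 or 4 and 0 without control replicate 3 or 5, where the smallest adjusted p was 0.0503, in a test with 126 assignments. Of the phyla 5 passed without control replicate 1, 4 or 5, with differences of 0.917 to 1.06 times their full size. Without FO replicate 2 the differences of Verrucomicrobiota and Lactobacillales were 0.401 and 0.524 times their size with all mice, and without FO replicate 3 that of Christensenellales was 0.617 times its size. As log ratios the picture was narrower. In the mean of logs used here rare and abundant lines weigh the same. A large change in a rare line, such as Verrucomicrobiota, thus shifts the values of all the others, and the signs of small values can depend on it. Bacteroidota fell (-1.90 on the log2 scale; 1 of 9 lower, 11.1%) and Verrucomicrobiota rose (3.96; 1 of 9 higher, 11.1%), both with an exact permutation test adjusted p of 0.0357. Firmicutes_A, at -0.33 on this scale, had the opposite sign to its share (adjusted p = 0.298), as did Firmicutes_B_370539 at -0.63. Among the orders higher on shares the same held for Lachnospirales (-0.34), Christensenellales (-0.21) and Dehalobacteriales (-0.45). No order passed as a log ratio (0% higher and 0% lower), although 4 of 19 had an unadjusted p under 0.05 and the smallest adjusted p was 0.0503 (exact permutation test). Bacteroidales, Verrucomicrobiales and Erysipelotrichales, at -1.72, 4.15 and -3.49, had that adjusted p, and 4 orders passed when no filter on low shares was applied.

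Families were tested with edgeR on the counts. On shares 15 of 24 were higher in FO mice (62.5%) and 1, Muribaculaceae, was lower (4.17%), with a log2 change of -0.58 ± 0.056 (SE). Lachnospiraceae rose by 0.98 ± 0.125, Oscillospiraceae_88309 by 1.46 ± 0.14 and Bacteroidaceae by 1.05 ± 0.14 (log2 of share ± SE). As log ratios 2 families were higher (8.33%) and 1 lower (4.17%). These were Akkermansiaceae (5.01 ± 0.77), Mucispirillaceae (1.05 ± 0.34, adjusted p = 0.047) and Muribaculaceae (-1.79 ± 0.13). Only 1 family was higher on this scale without FO replicate 2, 3 or 5 or without control replicate 1, 3 or 5. Lachnospiraceae and Bacteroidaceae stood at -0.23 ± 0.16 and -0.17 ± 0.15 as log ratios, with signs opposite to their shares and adjusted p of 0.319 and 0.456 (edgeR).

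The second comparison asked whether diversity within a mouse differed. Shannon diversity, a measure of how many entries share the reads and how evenly, was 2.46, 2.43, 2.31, 2.42 and 2.27 in the control mice and 2.78, 3.04, 3.27, 3.08 and 3.09 in the FO mice. Every FO mouse lay above every control mouse, and the control mice lay closer together (SD 0.0824) than the FO mice (SD 0.174). The most abundant pair of entries in a mouse held 61.6% ± 2.10 of control reads and 38.1% ± 4.92 of FO reads (SD, n = 5 each; exact permutation test, p = 0.00794). It took 16.6 ± 1.14 entries to reach 90% of the reads of a control mouse and 23.4 ± 2.30 entries in an FO mouse. Pielou's evenness was 0.497 ± 0.0118 and 0.630 ± 0.0213, with all 5 FO mice above all control mice. The number of entries observed after every mouse was drawn down to 17218 reads was 109.7 ± 8.24 and 120.7 ± 12.7 (SD, n = 5 each), and this difference did not exceed the spread within the groups (p = 0.159 by exact permutation test). Richness depended on FO replicate 1, which had 101 entries against 118 to 132 in the other FO mice. Without it the difference was 15.9 entries (exact permutation test, p = 0.0238).

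The index can be split exactly into 3 parts, which are the split of reads between Muribaculaceae and the rest, the diversity among Muribaculaceae entries weighted by their share, and the diversity among all other entries weighted by theirs. The part for the split rose from 0.511 ± 0.0257 to 0.689 ± 0.00511. The part among Muribaculaceae fell from 1.21 ± 0.0460 to 0.850 ± 0.0211, and the part among the rest rose from 0.661 ± 0.0591 to 1.51 ± 0.176 (SD, n = 5 each). Taken without these weights, diversity on either side of the split differed little. Among Muribaculaceae reads alone the index was 1.52 ± 0.0499 in control and 1.61 ± 0.103 in FO mice (exact permutation test, p = 0.143), and among all other reads 3.17 ± 0.112 and 3.21 ± 0.125 (exact permutation test, p = 0.524). A p above the threshold does not show that they were the same, and 4 of 5 FO mice lay above all control mice within Muribaculaceae.

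**Figure D2:**
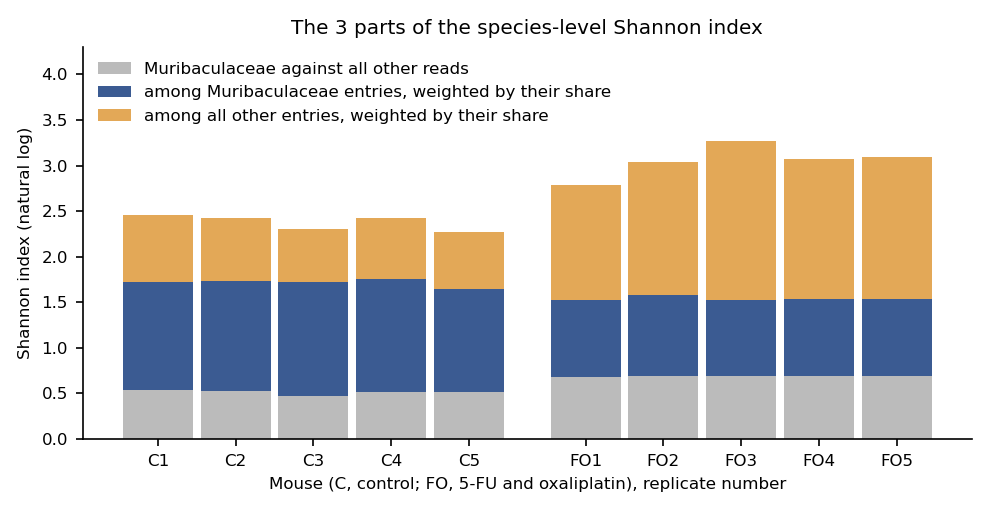
Shannon index of the species table (vertical axis, natural log) for each of the 5 control and 5 FO mice, stacked as its 3 parts. The part among entries outside Muribaculaceae had a mean of 0.661 in control and 1.51 in FO mice, while the part among Muribaculaceae fell from 1.21 to 0.850.

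The third comparison asked which species-level entries differed. With edgeR on shares 34 of the 74 entries tested were higher in FO mice (45.9%) and 7 were lower (9.46%), and the median log2 change over all 74 was 0.93. As log ratios 4 were higher (5.41%) and 11 lower (14.9%), with a median of -0.04. The 4 higher depended on scaling and filter. RLE scaling gave 10 higher and 11 lower with a median of 0.20, and DESeq2, which changes both scaling and test, gave 11 and 11. With TMM scaling kept, a filter at a mean share of 0.1% gave 8 and 11 of 45 entries. No filter beyond a count in 2 samples gave 3 and 13 of 167. Without FO replicate 1 there were 9 higher and 11 lower, and without control replicate 2 there were 2 and 11. The log ratio values lay 0.95 below the share values on average. In total 11 entries passed on both scales in the same direction, 4 higher and 7 lower. Of the 34 entries higher on shares, 7 had a log ratio below 0. At the genus level 25 of 61 were higher (41%) and 5 lower (8.2%) on shares, and 4 were higher (6.56%) and 8 lower (13.1%) as log ratios, or 7 and 7 with RLE scaling. A filter at a mean share of 0.1% gave 8 and 8 of 35 genera as log ratios, and no filter beyond a count in 2 samples 4 and 9 of 125. Of the 4 higher genera Akkermansia passed in all 10 fits that each left out 1 mouse, Mucispirillum in 4, the Oscillospiraceae_88309 genus with a blank name in 3 and Lactobacillus in 0. Summed over entries, mean shares fell by 29.3 percentage points in 48 entries and rose by the same amount in 141. A single entry, UBA7173 sp002491305, made up 52.7% of all the falls, and CAG-873 sp011959565 another 27.3%, whereas 7 entries were needed for 50% of the rises.

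**Figure D3:**
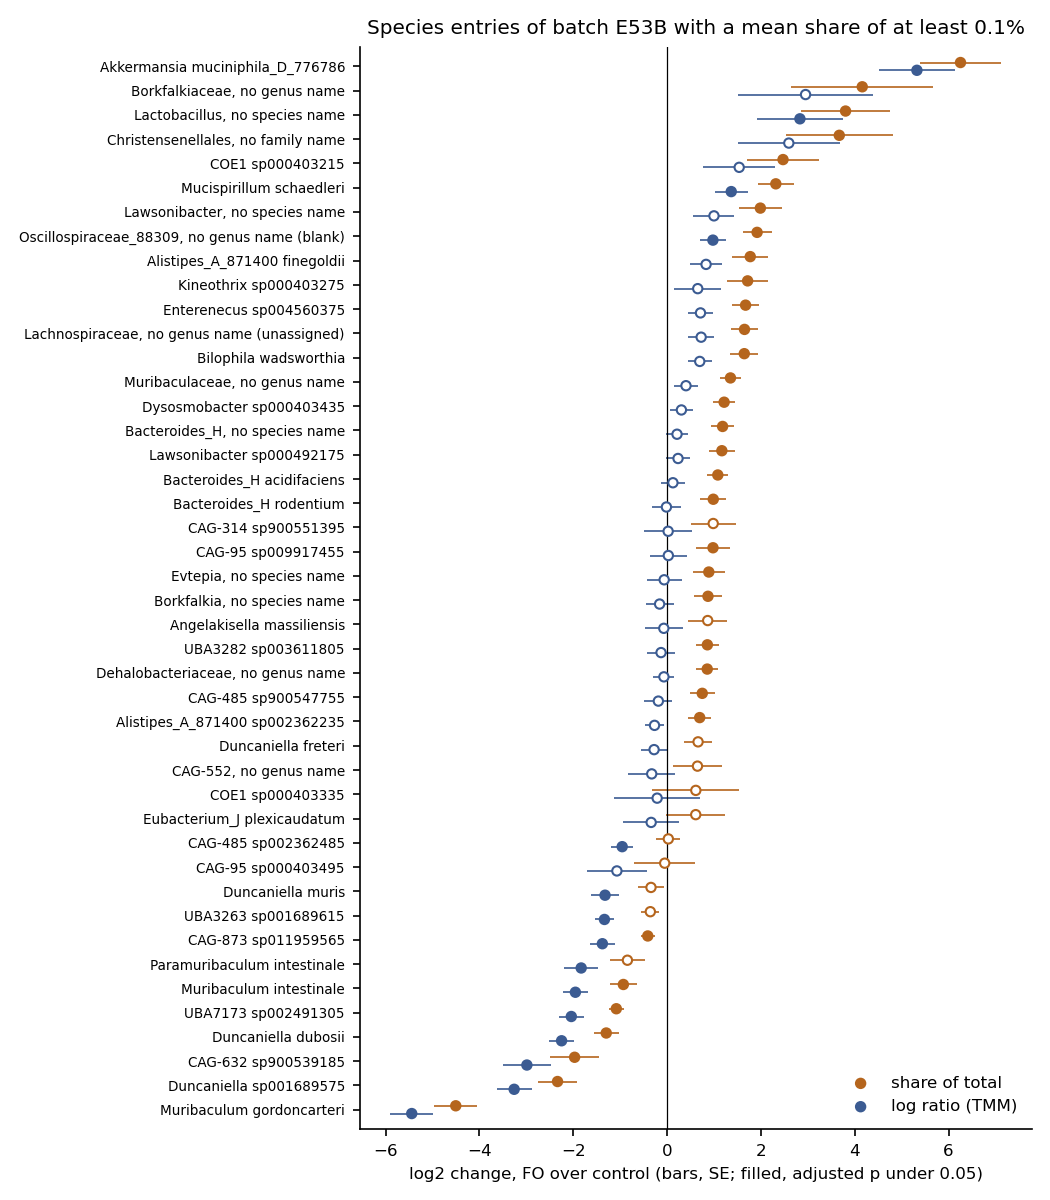
Change of each species-level entry tested that had a mean share of at least 0.1% (rows), as log2 of FO over control on shares and as log ratio (horizontal axis), with SE bars from edgeR on 5 against 5 mice and filled points for an adjusted p under 0.05. The log ratio points lay left of the share points, by 0.95 on average over all 74 entries tested, and only Akkermansia, Lactobacillus, Mucispirillum and the Oscillospiraceae entry with a blank genus name were filled on the right on both scales.

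Muribaculaceae had 16 entries with a count, of which 13 were tested. On shares 6 of them fell and 2 rose, with a median log2 change of -0.41, beside 7 lower (9.46%) and 34 higher (45.9%) among all 74 entries tested. As log ratios 10 fell and none rose, with a median of -1.38, beside 11 lower (14.9%) and 4 higher (5.41%) among all. UBA7173 sp002491305, a genus known only by its genome-database code, took 34.04%, 28.9%, 25.7%, 25.0% and 32.8% of the reads of the control mice, and 14.6%, 12.2%, 10.2%, 14.9% and 17.2% of those of the FO mice. All FO mice were below all control mice, and the change was -1.08 ± 0.16 (log2 of share ± SE, adjusted p = 0.000351) and -2.04 ± 0.27 as log ratio. CAG-873 sp011959565, the most abundant entry of this batch, took 25.6%, 31.5%, 37.9%, 35.2% and 31.3% in control and 30.7%, 25.7%, 21.4%, 24.2% and 19.4% in FO mice. These groups overlapped only through control replicate 1, which lay below FO replicates 1 and 2. Its change of -0.41 ± 0.15 on shares (edgeR, adjusted p = 0.0336) held in 2 of the 10 fits that each left out 1 mouse (adjusted p up to 0.0863), while the log ratio of -1.38 ± 0.26 passed in all 10. Within Muribaculaceae reads, UBA7173 sp002491305 went from 37.1% ± 5.77 to 26.1% ± 4.70 (exact permutation test, p = 0.0238) and CAG-873 sp011959565 from 40.7% ± 5.02 to 45.6% ± 5.56 (p = 0.23, SD, n = 5 each).

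Smaller Muribaculaceae did not move as a block. Muribaculum gordoncarteri had the largest fall of any entry tested with a mean share of at least 0.1%. It was at 0.222%, 0.299%, 0.230%, 0.253% and 0.209% in control mice, or 86 to 137 reads each, and at 0.0174%, 0.00740%, 0.00730%, 0.0143% and 0.00802% in FO mice, or 3 to 5 reads each. Summed over mice this was 520 of 213989 reads against 18 of 183732, a share 24.8-fold lower after FO with an exact 95% interval of 15.5 to 42.2 for counting error only. The edgeR change was -4.50 ± 0.45 on shares (adjusted p = 1.41e-05) and -5.44 ± 0.46 as log ratio. Its relative Muribaculum intestinale fell less, from 1.44% ± 0.121 to 0.751% ± 0.311 (SD, n = 5 each; -0.93 ± 0.29 on shares). The log2 ratio of the 2 Muribaculum species rose from 2.57 ± 0.238 to 5.91 ± 1.10 (exact permutation test, p = 0.00794).

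Duncaniella held 4 entries above 0.1% with different changes. D. dubosii was at 2.30%, 2.21%, 2.70%, 2.84% and 1.65% in control and at 1.00%, 0.592%, 1.11%, 1.37% and 0.676% in FO mice, with no overlap (-1.30 ± 0.27 on shares). Duncaniella sp001689575 was at 1.04%, 0.622%, 0.778%, 1.18% and 0.374% in control and 0.110%, 0.111%, 0.153%, 0.302% and 0.112% in FO mice, again with no overlap (-2.34 ± 0.41 on shares, adjusted p = 0.000658). D. freteri was at 0.153% to 0.266% in control and 0.279% to 0.395% in FO mice, so that all FO mice lay above all control mice, yet its change of 0.66 ± 0.29 on shares did not pass (edgeR, adjusted p = 0.0726) and its log ratio was -0.28 ± 0.29. D. muris overlapped, at 1.81% to 2.82% and 1.02% to 2.92% (-0.34 ± 0.27 on shares, adjusted p = 0.298), and passed only as log ratio (-1.32 ± 0.30). Ratios within a genus do not depend on what other bacteria did. The log2 ratio of Duncaniella sp001689575 to D. freteri was 1.28 to 2.16 in control and -1.81 to -0.12 in FO mice, a change of -3.01. The ratio of D. dubosii to D. freteri was nearly constant in control mice (3.43 ± 0.104) and 1.42 ± 0.427 in FO mice. Of all 15 pairs of entries that share a genus and reach 0.1%, 6 differed after adjustment over the 15 (40%; exact permutation test, adjusted p = 0.0238 for 5 of them). These were 4 of the 6 Duncaniella pairs, the Muribaculum pair and the Alistipes_A_871400 pair (change of -1.03, adjusted p = 0.0397). The 3 pairs among Bacteroides_H entries changed by -0.19 to -0.09, with unadjusted p of 0.595 to 0.802 (exact permutation test). Pairs of a genus share entries, as the 6 pairs of the 4 Duncaniella entries do, so the 15 are not independent.

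Among the other Muribaculaceae, reads with no genus name rose, being at 1.27% to 1.59% in control and 2.45% to 5.57% in FO mice (1.35 ± 0.23 on shares, adjusted p = 0.000658; 0.40 ± 0.26 as log ratio). CAG-485 sp900547755 rose on shares (0.75 ± 0.27, adjusted p = 0.0323, passing in 4 of the 10 fits without 1 mouse), with a log ratio of -0.19 ± 0.30. CAG-485 sp002362485 stayed at 0.899% to 1.51% and 0.732% to 1.65% (0.03 ± 0.25 on shares) and fell as log ratio (-0.96 ± 0.24, adjusted p = 0.00801). UBA3263 sp001689615 and Paramuribaculum intestinale fell as log ratios (-1.34 ± 0.21 and -1.83 ± 0.37). On shares these 2 did not pass, at -0.36 ± 0.19 and -0.85 ± 0.38 (edgeR, adjusted p = 0.135 and 0.074).

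The other Bacteroidales had 8 entries with a count and 6 tested, of which 5 rose on shares and none fell (median 1.03), beside 45.9% higher and a median of 0.93 over all entries tested. As log ratios none passed and the median was 0.06. Bacteroides_H rodentium, a polysaccharide degrader, was at 1.14% to 2.54% in control and 2.16% to 4.95% in FO mice (0.98 ± 0.28 on shares, -0.01 ± 0.31 as log ratio). Bacteroides_H acidifaciens, a mouse gut species known to use mucus glycans, was at 0.956% to 1.58% and 2.08% to 3.50%, with no overlap (1.08 ± 0.23 on shares; 0.12 ± 0.26 as log ratio). Bacteroides_H reads with no species name rose from 0.666% ± 0.131 to 1.51% ± 0.394 (SD, n = 5 each; 1.18 ± 0.24 on shares). Alistipes_A_871400 sp002362235 rose by 0.70 ± 0.25 on shares (adjusted p = 0.0308, lost in 6 of the 10 fits without 1 mouse) with a log ratio of -0.27 ± 0.21, and A. finegoldii rose by 1.77 ± 0.38 on shares and stood at 0.83 ± 0.34 as log ratio (adjusted p = 0.11).

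Lachnospirales had 63 entries with a count, the most of any group, but only 17 were frequent enough to test. On shares 7 of the 17 rose and 1 fell (median 1.18), a share of risers no higher than the 45.9% over all entries tested. As log ratios none rose and 1 fell (median 0.26). UBA3282 sp003611805, its largest entry, was at 2.20% to 3.64% in control and 3.71% to 7.71% in FO mice (0.86 ± 0.24 on shares; -0.13 ± 0.29 as log ratio). Reads with an unassigned genus rose, being at 0.819% to 1.5% in control and 1.53% to 4.62% in FO mice (1.65 ± 0.29 on shares). Kineothrix sp000403275, of a genus described as butyrate-producing, rose from 0.556% ± 0.346 to 1.83% ± 0.867 (SD, n = 5 each; 1.72 ± 0.43 on shares, 0.65 ± 0.50 as log ratio). CAG-95 sp000403495 did not pass on either scale, and the FO mice lay on both sides of the control mice. It was at 3.60%, 1.75%, 1.97%, 1.91% and 2.61% in control mice and at 0.192%, 0.370%, 3.81%, 3.07% and 3.97% in FO mice, so that 2 FO mice lay below and 2 above all control mice (-0.05 ± 0.64 on shares, adjusted p = 0.939; -1.07 ± 0.64 as log ratio, adjusted p = 0.293, edgeR). CAG-632 sp900539185 was the one entry of this order that fell, being at 0.122% to 0.296% in control and 0.0197% to 0.122% in FO mice (-1.97 ± 0.53 on shares, adjusted p = 0.00854; -2.99 ± 0.52 as log ratio). FO replicate 3, at 0.1217%, lay just under control replicate 2, at 0.1222%.

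Oscillospirales had 49 entries with a count and 22 tested, of which 9 rose and none fell on shares (median 1.01). This too was no more than the 45.9% over all entries tested. As log ratios 1 rose and none fell (median 0.08). Dysosmobacter sp000403435, of a genus known for butyrate production, was at 1.16% to 2.33% in control and 3.43% to 5.60% in FO mice (1.22 ± 0.23 on shares, 0.31 ± 0.25 as log ratio). Reads of Oscillospiraceae_88309 with a blank genus name were at 1.46%, 1.12%, 0.992%, 0.761% and 0.717% in control and 1.83%, 4.90%, 3.84%, 3.11% and 5.41% in FO mice. All FO mice were above all control mice, and the rise passed on both scales (1.92 ± 0.31 on shares; 0.98 ± 0.27 as log ratio, adjusted p = 0.0182, lost at an adjusted p up to 0.056 without FO replicate 2, control replicate 2 or control replicate 4). Enterenecus sp004560375 rose from 0.525% ± 0.161 to 1.67% ± 0.532 and Lawsonibacter sp000492175 from 0.351% ± 0.0663 to 0.787% ± 0.228 (SD, n = 5 each; 1.67 ± 0.30 and 1.17 ± 0.28 on shares, 0.71 ± 0.27 and 0.23 ± 0.26 as log ratios). Lawsonibacter reads with no species name rose by 1.99 ± 0.47 on shares and stood at 1.00 ± 0.44 as log ratio.

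Christensenellales had 9 entries with a count and 5 tested, of which 3 rose on shares (median 0.98) and none passed as log ratio (median 0.02), beside 45.9% and 5.41% higher over all entries tested and medians of 0.93 and -0.04. Borkfalkia reads with no species name were at 0.675% to 0.958% in control and 0.790% to 2.20% in FO mice (0.87 ± 0.29 on shares, adjusted p = 0.0258, lost in 5 of the 10 fits without 1 mouse; -0.16 ± 0.30 as log ratio). Borkfalkiaceae reads with no genus name had no count in FO replicates 1 and 5 and were at 1.33% in FO replicate 3. Their change of 4.16 ± 1.51 on shares (edgeR, adjusted p = 0.0323) was 1.87 with an adjusted p of 0.284 without FO replicate 3, and it also missed the threshold without any one of the control mice. Reads of the order with no family name rose by 3.67 ± 1.14 on shares but had no count in FO replicate 1. Other orders of Clostridia had 17 entries, 4 tested and 1 higher on shares, beside 45.9% over all entries tested (median 0.36, -0.51 as log ratio), and reads of Dehalobacteriaceae with no genus name, outside this list, rose by 0.86 ± 0.23 on shares with a log ratio of -0.07 ± 0.22.

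The mucus-associated genera had 1 entry each, and both passed on both scales. Akkermansia muciniphila_D_776786, a mucin degrader, was at 0.0129%, 0.0109%, 0.00456%, 0.00544% and 0.00486% in control mice, which is 2 to 6 reads each, and at 0.180%, 2.09%, 0.429%, 0.151% and 0.253% in FO mice, 31 to 846 reads each. All FO mice lay above all control mice, and FO replicate 2 stood far above the other FO mice. Summed over mice the share was 84.4-fold higher after FO (17 of 213989 against 1232 of 183732 reads, exact 95% interval 52.5 to 145 for counting error only). FO replicate 2 alone gave 846 of the 1232 reads, so this ratio rests largely on 1 mouse, and the interval does not cover the spread between mice. The edgeR change was 6.25 ± 0.87 on shares (adjusted p = 0.000267), with a range of 4.97 to 6.51 when 1 mouse at a time was left out, and 5.32 ± 0.81 as log ratio. Mucispirillum schaedleri, a mucus-layer resident, was at 0.211%, 0.310%, 0.182%, 0.155% and 0.170% in control and 0.447%, 0.928%, 1.33%, 0.662% and 1.76% in FO mice, without overlap (2.32 ± 0.39 on shares, adjusted p = 0.000658; 1.37 ± 0.35 as log ratio, adjusted p = 0.0108). The FO mouse with the most Akkermansia was not the one with the most Mucispirillum, which was FO replicate 5.

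Bilophila wadsworthia, the one Desulfovibrionaceae entry, was at 0.808%, 0.744%, 0.349%, 0.780% and 0.571% in control and 1.51%, 1.53%, 3.11%, 1.70% and 2.32% in FO mice. The groups did not overlap (1.65 ± 0.30 on shares, adjusted p = 0.000715), while the log ratio of 0.70 ± 0.26 did not pass (edgeR, adjusted p = 0.0704). Bacilli had 14 entries with a count and 2 tested, and both rose on shares, beside 45.9% over all entries tested. Lactobacillus reads with no species name, which are lactic acid fermenters, were at 0% to 0.0284% in control and 0.0902% to 0.484% in FO mice (3.80 ± 0.95 on shares; 2.83 ± 0.92 as log ratio, adjusted p = 0.0416, lost without FO replicate 2 or 3 or any of control replicates 1 to 4, at an adjusted p up to 0.113). Turicibacter, the other, rose from 0.00607% ± 0.00952 to 0.0712% ± 0.0373 (SD, n = 5 each). Proteobacteria, the phylum of Escherichia and relatives, had 1 entry, at 0.00972% to 0.0217% in control mice and 0%, 0.00740%, 0%, 0.0770% and 0.0481% in FO mice, so by counts 3 FO mice lay below and 2 above all control mice (exact permutation test, p = 0.563). FO replicate 1 could hold up to 0.0174% uncounted, which is within the control range, so its place below is not certain. Clostridiaceae had 1 entry, with no count in any control mouse and 0%, 0.00987%, 0.0463%, 0% and 0.00802% in FO mice, too rare to test.

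To describe both sides of the split without the change in the share of Muribaculaceae, shares were recomputed within Muribaculaceae reads for the 13 entries of the family that reach 0.1% and within all other reads for the other 32. None of these 45 passed after adjustment over all 45 (0% higher and 0% lower; exact permutation test, smallest adjusted p = 0.0510), although 14 had an unadjusted p under 0.05 and 7 the smallest p the design allows. Outside Muribaculaceae, 16 of 32 entries had all 5 FO mice above all control mice as a share of all reads, and 2 did as a share of the reads outside the family. Those 2 were Akkermansia muciniphila_D_776786 and Lactobacillus with no species name, and CAG-632 sp900539185 was the only one with all FO mice below. The filter at 0.1% used the mean over both groups. Akkermansia and Lactobacillus, at control means of 0.00774% and 0.0134%, reach it only through the FO mice. CAG-632 sp900539185, like Muribaculum gordoncarteri within the family, reaches it only through the control mice. For such entries the filter itself favours groups that lie apart, which limits these counts of the 32. On this base 16 of the 32 had a higher and the others a lower mean after FO. Bacteroides_H rodentium, for one, went from 8.96% ± 2.44 to 7.90% ± 2.39 of the reads outside Muribaculaceae, and Dysosmobacter sp000403435 from 8.19% ± 1.57 to 8.67% ± 2.69 (SD, n = 5 each). Inside Muribaculaceae all 5 FO mice were above all control mice for reads with no genus name, CAG-485 sp900547755 and D. freteri, and below for Muribaculum gordoncarteri.

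The fourth comparison asked how uniform the response was. Bray-Curtis distances, which run from 0 for identical to 1 for disjoint communities, were 0.0638 to 0.154 between pairs of control mice (median 0.108), 0.157 to 0.272 between pairs of FO mice (median 0.185) and 0.255 to 0.384 between a control and an FO mouse (median 0.314). Treatment accounted for an R2 of 0.653 of the variation in these distances (exact permutation test, p = 0.00794). With the Jaccard distance, which uses presence alone, R2 was 0.180 (exact permutation test, p = 0.0317). FO mice lay farther from their own centroid, at 0.148, 0.102, 0.114, 0.0984 and 0.154, than control mice, at 0.0926, 0.0477, 0.0770, 0.0667 and 0.0630. All 5 FO mice exceeded all control mice in this spread (difference 0.0537, exact permutation test, p = 0.00794). On presence alone the spread did not differ (-0.00126, exact permutation test, p = 0.913). In both tests the distances to each mouse's own group centroid were kept fixed while the labels were permuted, so these p-values are approximate. FO replicates 1 and 5 were the most distant from their group and lay at opposite ends of the second axis, while FO replicate 3 lay farthest from the control centroid (0.345) and FO replicate 4 nearest (0.272).

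**Figure D4:**
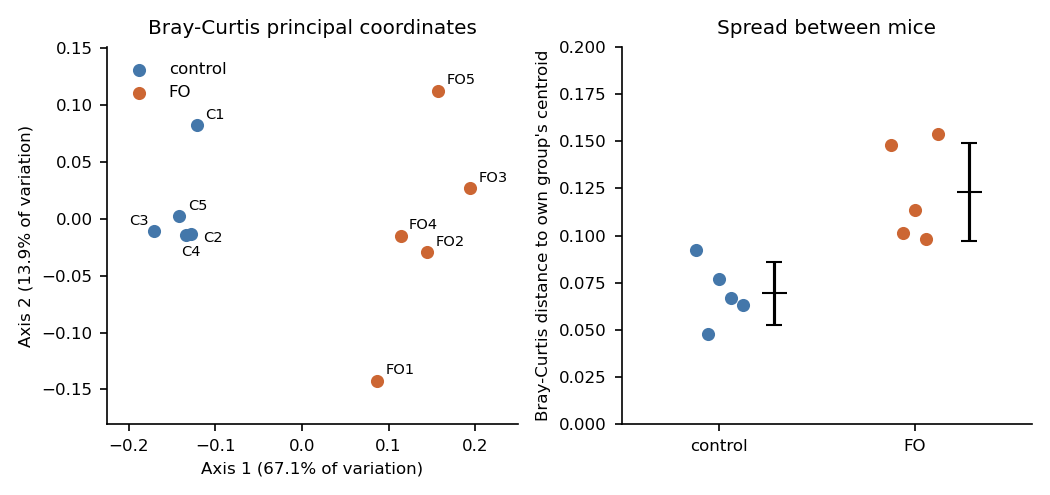
Left, principal coordinates of Bray-Curtis distances for 5 control (C1 to C5) and 5 FO mice (FO1 to FO5), with axis 1 holding 67.1% and axis 2 13.9% of the variation. Right, the distance of each mouse to its own group's centroid with mean and SD (n = 5); the FO values of 0.0984 to 0.154 all lie above the control values of 0.0477 to 0.0926.

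Of the 74 entries tested, 20 had all 5 FO mice above all control mice (27%) and 6 had all 5 below (8.11%). Among the 34 entries higher on shares, which were chosen by the same values, 19 had all 5 FO mice above all control mice and 30 had at least 4. Among the 7 lower entries 6 had all 5 FO mice below, the exception being CAG-873 sp011959565. The single mice differed in how many of the 34 they carried above all control mice, with 26 in FO replicate 1, 31 in FO replicate 2, all 34 in FO replicate 3, 29 in FO replicate 4 and 31 in FO replicate 5. Over all 74 entries tested, FO replicates 1 to 5 had 33, 41, 48, 42 and 40 entries above all control mice and 13, 12, 11, 9 and 15 below all of them. FO replicate 1, the lowest, was also the shallowest library, and the part of depth in this was not tested. All 5 FO mice were below the control mean for each of the 7 lower entries.

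Spread between mice was larger after FO for most entries. Over the 34 entries with a mean share of at least 0.1% in each group, the SD of log2 share was larger among FO than among control mice for 28, with medians of 0.489 and 0.305. Over all 45 entries that reach 0.1% as a mean of the 10 mice, some of which do so only through the FO mice, it was larger for 36, with medians of 0.576 and 0.347. Without FO replicate 1 it was larger for 31 of the 45, with an FO median of 0.480. The most variable entry was C-53 with no species name, at 1.62% (810 reads) in FO replicate 5 and with no count in the other 9 mice, followed by Borkfalkiaceae with no genus name and reads of Christensenellales with no family name. Next came CAG-95 sp000403495, with an SD of 2.08 among FO and 0.425 among control mice, and COE1 sp000403215, with 1.79 and 1.67. COE1 sp000403215 was at 2.34%, 1.49%, 1.21%, 0.0970% and 1.07% in FO mice, so FO replicate 4 stayed in the control range of 0.0245% to 0.408% while the other 4 were above it. Akkermansia muciniphila_D_776786 (1.52), COE1 sp000403335 (1.35), Eubacterium_J plexicaudatum (1.16), Paramuribaculum intestinale (1.06) and Lactobacillus with no species name (1.01) completed the 10 most variable.

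The least variable entries among FO mice were D. freteri (SD 0.211), CAG-873 sp011959565 (0.254), Dehalobacteriaceae with no genus name (0.276), UBA7173 sp002491305 (0.289) and Dysosmobacter sp000403435 (0.297). Their control SDs of 0.20 to 0.369 were close to these values. UBA7173 sp002491305 fell in all 5 FO mice to between 10.2% and 17.2%, whereas 3 of the 45 entries with a mean share of at least 0.1%, CAG-95 sp000403495, D. muris and CAG-485 sp002362485, had FO mice both above and below the whole control range.

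**Figure D5:**
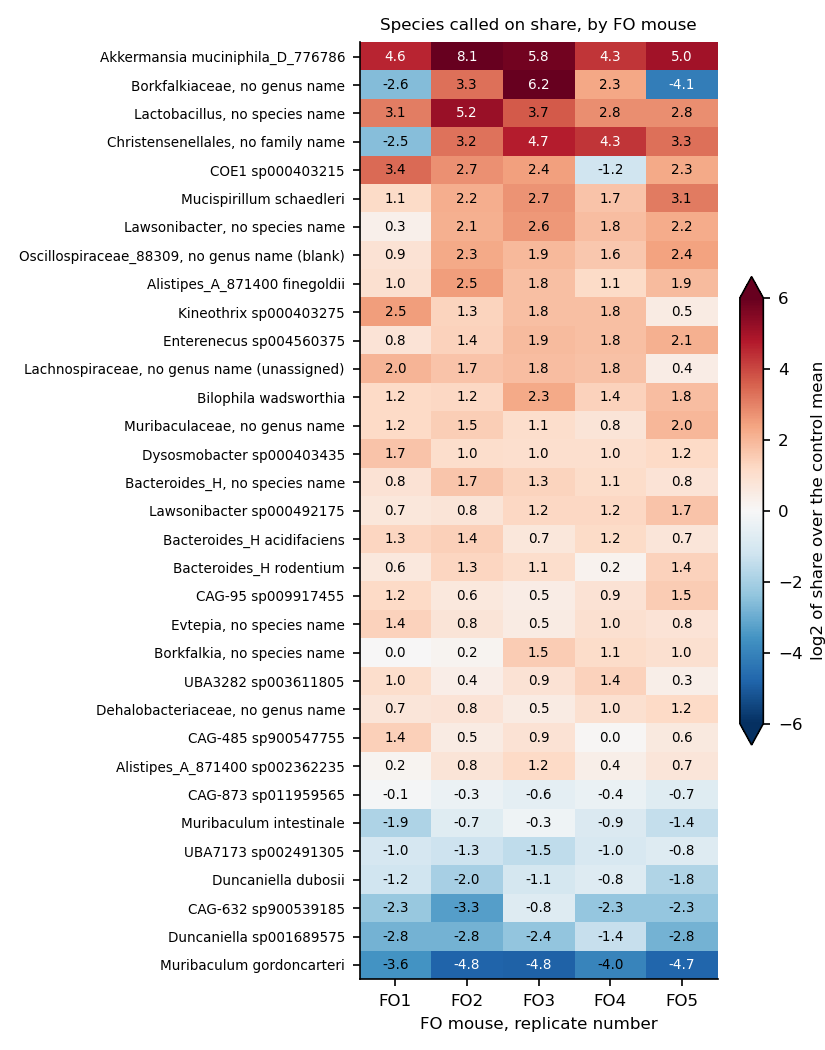
Log2 of the share in each FO mouse (columns FO1 to FO5) over the mean share of the 5 control mice, for the species-level entries that passed on shares and had a mean share of at least 0.1% (rows), with 0.5 added to each FO count. The lower entries are negative in all 5 mice, while Borkfalkiaceae with no genus name, Christensenellales with no family name and COE1 sp000403215 are negative in at least 1 mouse despite a higher mean.

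The same contrast in the 10 mice of the other batch, E56A, was fitted alone for comparison. There 0 of 73 entries passed on either scale in edgeR, with 16 at an unadjusted p under 0.05 on shares and 9 as log ratios. Of the 34 entries higher in batch E53B on shares 31 were tested in E56A, and 28 of them had a change above 0 there, beside 59 of all 73. Their median change was 1.24 in E56A and 1.65 in E53B. Since these entries were chosen for passing in E53B, their E53B medians can be inflated by that choice, here and in the other lists of this kind, and the medians of the batches are not compared. Of the 7 lower entries 5 were below 0 in E56A, with medians of -0.58 there and -1.30 in E53B. Among the 11 entries lower as log ratios 10 were below 0 in E56A, where 48 of all 73 were above 0. Of the 4 entries higher as log ratios 3 were tested in E56A and 2 of these were above 0 there, with a median of 0.45 against 1.37 in E53B. The third, Lactobacillus with no species name, stood at -0.91. Akkermansia muciniphila_D_776786 was not tested there, at 0.205% ± 0.440 in control and 0.959% ± 0.882 in FO mice (SD, n = 5 each). A model with an interaction term found 0 of 92 entries whose change on shares differed between batches, with 10 at an unadjusted p under 0.05 and a smallest adjusted p of 0.0535 (edgeR). That entry was Duncaniella sp001689575, which in E56A stood at 0.443% ± 0.170 in control and 0.458% ± 0.141 in FO mice (SD, n = 5 each). The difference between batches was -2.39 ± 0.59 on shares, and it passed in DESeq2 (-2.39, adjusted p = 0.0012), with TMM scaling (-2.60, adjusted p = 0.0105) and without FO replicate 4 or control replicate 5 of E53B. CAG-95 sp000403495, split among the FO mice of E53B, stood in E56A at 1.16% ± 0.616 in control and 4.36% ± 2.49 in FO mice and did not pass (1.91 ± 0.52, adjusted p = 0.0959), and the difference between batches had an adjusted p of 0.429 (edgeR).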

How the data were processed

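Fecal DNA was amplified over the V4 region of the 16S rRNA gene and sequenced in pairs on a MiSeq. According to the methods, reads were trimmed with cutadapt, merged with vsearch, quality filtered, cleared of chimeras in QIIME2, grouped into operational taxonomic units and named by a naive Bayes classifier trained on Greengenes2; the submitters' processing notes also name bcl2fastq 2.2. The authors deposited whole-number read counts per taxon with no normalization, in 6 tables for the ranks from phylum down to species; all were used as counts, and 0 columns or rows of other samples were left over. The mouse genome was not used here.

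Groups and batch came from the sample labels, with replicates numbered in accession order, so numbers pair no samples. Shares were percentages of a mouse's total. The share model used edgeR 4.0.16 quasi-likelihood tests (filterByExpr, totals as library sizes) and the log ratio model added TMM scaling, which sets the bulk of taxa to no change. Values are log2 ± SE, with Benjamini-Hochberg adjustment over all taxa tested of a rank and a threshold of 5%. For phyla and for orders, a mean of 0.01% or more was required, and they were tested by two-sided exact permutation of shares and of centred log ratios (pseudocount 0.5), as were single measures and the R2 and dispersion of Bray-Curtis distances. For dispersion, distances to the own group's centroid were kept fixed while labels were permuted, so its p is approximate. Shannon indices used natural logs, and richness was the mean of 100 draws. The p-values measure the spread between mice of 1 batch, and the cage is not known.

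Named were the phyla and orders that reached a mean of 0.1%, entries of at least 1%, up to 10 entries of at least 0.1% per direction and scale with the largest changes among those passing, up to 4 members of at least 0.1% of each taxon list, and the 10 most and 5 least variable entries among FO mice. Other entries were named after their values were seen. The batch, the lists and the rules were chosen with earlier results of these data known, and the ratios within genera, the shares within and outside Muribaculaceae and the parts of the Shannon index were added after the data were seen. Alternatives were no filter, a filter at 0.1%, other scaling, pseudocounts and distances, DESeq2 1.42.0, limma 3.58.1, a fit of all 20 samples and each mouse left out. The edgeR models were also tested on simulated data, counts of 74 entries with 20 of them changed 4-fold in each of 20 runs, and recovered 95.0% of them on shares and 94.8% as log ratios, with 3.55% and 4.53% of calls false. Changed entries were drawn at random, as many up as down, with the same spread in both groups and totals not held fixed. The runs were not set up with the fall of a dominant family or a larger spread among FO mice, so these rates do not carry over to this batch. R 4.3.3, Python 3.11.15, numpy 2.4.6, pandas 2.3.3 and scipy 1.17.1 were used.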

Additional observations from a re-analysis of the deposited data

Results flagged for a closer look

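Within groups of 5 mice, a value was marked when it stood apart from its group by more than Dixon's 95% criterion. This was tried on 115 groups of 5 values, of which 11 were marked. Chance marks about 1 in 20 when values are independent and normally distributed. Shares are bounded at 0, some groups hold the same reads, and all 11 marked values were the highest of their group. The 11 are therefore not compared with that rate. FO replicate 2 stood apart for Verrucomicrobiota, that is Akkermansia, at 2.09% against 0.151% to 0.429% in the other FO mice. The same mouse stood apart for Lactobacillales and for its Lactobacillus entry with no species name, at 0.484% for each, against 0.10% to 0.205% and 0.0902% to 0.170%. FO replicate 5 stood apart for C-53 with no species name, at 1.62% against 0, and for COE1 sp000403335, at 0.387% against 0.0365% to 0.0871%. In FO replicate 3 this held for Borkfalkiaceae with no genus name, at 1.33% against 0 to 0.170%, and for CAG-632 sp900539185, at 0.122% against 0.0197% to 0.0407%. In FO replicate 4 it held for Duncaniella sp001689575, at 0.302% against 0.110% to 0.153%, and for Eubacterium_J plexicaudatum, at 0.659% against 0.0822% to 0.248%. FO replicate 1, the shallowest library, stood apart for Dysosmobacter sp000403435, at 5.60% against 3.43% to 3.98%. Among control mice control replicate 1 stood apart for Bacteroides_H with no species name, at 0.892% against 0.576% to 0.666%. No entry with a mean share of at least 0.1% had all FO mice above the control mean in one batch and all below it in the other.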

How the results depend on the processing

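Of 212 recomputed values of the main comparisons 186 kept their direction, their side of the threshold and, for counts, stayed within 1.5 times. Dispersion reversed with the Jaccard distance (-0.00126). Leaving out 1 mouse at a time gave 7.71 to 15.9 more entries observed, 5 to 8 phyla (8 with all mice) and 0 to 14 orders (13 with all mice) changed on shares, 0 to 4 orders as log ratios (0 with all mice) and 0 to 1 species entries that differed between batches. Without a filter on low shares 4 phyla and 4 orders passed as log ratios, against 2 and 0 with it. Fitting all 20 samples together gave 9 families, 19 genera and 20 species entries on shares, against 16, 30 and 41 in this batch alone, and 6 against 12 genera as log ratios; the cause was not tested. The effect differed between batches for 1 species entry with TMM scaling and for 1 with DESeq2. Leaving out 1 mouse left 31 to 39 species entries on shares, with 23 of the 34 higher and 6 of the 7 lower ones passing in all 10 such fits, and 13 to 20 as log ratios, where 11 of 11 lower and 2 of 4 higher ones did. For genera as log ratios 7 of the 8 lower and 1 of the 4 higher ones did.

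Among the genera and species entries chosen by the naming rule, 10 had a log ratio with the sign opposite to their share, beside the phyla, orders, families and CAG-485 sp900547755 for which this is given with their values: CAG-485 as a genus (-0.63), CAG-485 sp002362485 (-0.96), Alistipes_A_871400 sp002362235 (-0.27), Bacteroides_H rodentium (-0.014), Borkfalkia with no species name (-0.16), COE1 sp000403335 (-0.21), Dehalobacteriaceae with no genus name (-0.068), Duncaniella freteri (-0.28), Eubacterium_J plexicaudatum (-0.34) and UBA3282 sp003611805 (-0.13). Leaving out 1 mouse turned the sign on shares of 4 entries that had not passed, with ranges of -0.13 to 0.15 for CAG-485 sp002362485, -0.35 to 0.24 for CAG-95 sp000403495, -0.46 to 0.93 for COE1 sp000403335 and -0.091 to 1.07 for Eubacterium_J plexicaudatum. Depth limits rare taxa most in FO replicate 1, where 3 counts are 0.0174% of reads.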
